A study of Mus musculus with 8 samples.

Results

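Glycolysis and glucose uptake genes were followed over 8 Affymetrix arrays of mouse intestine and intestinal tumours. The set was chosen by name and has 10 members: the glucose transporter gene Slc2a1 and the enzyme genes Hk1, Hk2, Pfkl, Pfkp, Tpi1, Pgk1, Eno1, Pkm and Ldha. A probe set counted for a member if the array annotation assigned it to that gene and no other. This gave 20 probe sets for 9 of the 10 members, out of 18193 genes with such a probe set, and Eno1 was not analysed here. A further probe set (1 in all), assigned to Hk1 and to other genes, was left out. All 9 members passed the filter on low signals, and 14027 genes in total did.

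The arrays came from C57BL/6 mice aged 110 days. In each of colon and small intestine (ileum, per the tumour labels) there were 4 groups: tumours of ACKR2-/-ApcMin/+ mice, tumours of ApcMin/+ mice, tissue without tumours of ACKR2-/- mice, and tissue of wild-type (WT) mice. The ApcMin allele is a germline mutation of the tumour suppressor gene Apc that gives mice tumours of the intestine. ACKR2 (D6) is a receptor that takes up inflammatory chemokines without classical signalling, and the ACKR2-/- genotype is also carried in the germline. Non-tumour tissue came from mice without ApcMin, so tumour and non-tumour arrays differed in genotype as well as in tissue state. RNA was pooled within each group and hybridised to 1 array, so no group had replicates. How many animals were pooled is not given in the sources used here.

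Glycolysis splits glucose into pyruvate in the cytosol, and its regulated steps are uptake by transporters, phosphorylation by hexokinases, and the phosphofructokinase and pyruvate kinase reactions. Lactate dehydrogenase A then turns pyruvate into lactate. Many tumours take up more glucose and make more lactate than the tissue they arise from, and several enzymes of the pathway exist as isozymes whose use differs between tissues.

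Signals are the linear MAS5 values of the arrays, each of which has a mean of 500 after 2% of values are left out at each end. Signals under a floor of 64.1 were set to it before taking log2. Levels of different genes are not compared, because each probe set has its own response. Tests came from 1 limma model across 14027 genes, whose only source of spread is how far the effect of ACKR2 genotype differed between the tissues (2 residual degrees of freedom). Its adjusted p-values therefore describe these 8 arrays and not variation between animals, and genes were called at an adjusted p under 0.05. With any single array left out, the model called 0 genes in either tumour comparison, while 1240 to 5231 genes had an unadjusted p under 0.05.

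Some arrays stood apart. Eif2s3y, a Y-linked gene, had signals of 888 to 1501 on 6 arrays, against 2.92 and 2.66 in WT tissue of colon and small intestine. Xist, made from the silenced X chromosome, was at 77.9 and 127 in the ACKR2-/-ApcMin/+ tumours and 2818 to 9809 elsewhere. Every pair of tumour and tissue arrays matched by organ and ACKR2 genotype therefore differed in Xist or Eif2s3y signal. The part of sex in the tumour differences was not tested. The Actb 3'/5' signal ratio, a measure of RNA integrity, was 1.28 to 1.39 on the 4 ACKR2-/- arrays and 1.13 to 1.17 on the other 4. The Gapdh 3'/5' ratio did not separate them, at 0.74 to 0.866 and 0.772 to 0.952. The median signal was 85.2 to 102.8 on the ACKR2-/- arrays and 115.2 to 132.7 on the others. The organ labels were checked against markers: in tissue without tumours, all 8 tested enterocyte markers of the small intestine were lower in colon than in small intestine (median log2 difference -7.15), and 3 of 6 colonocyte markers were higher and 0 lower. WT small intestine went against this in part. Its signal of the colonocyte gene Car1 was 18864, against 42.3 to 114 on the other small-intestinal arrays and 19162 in WT colon, and that of Aqp8 was 958, against 105 to 122 on the other small-intestinal arrays. Its summed enterocyte signal was 185780, the highest of the small-intestinal arrays, against 104900 to 181540 on the others. Without this array, the log2 difference of Slc2a1 in small-intestinal tumours was 2.24 (adjusted p = 0.525) and the Hk1 difference between the organs, described below, was -1.55 (adjusted p = 0.404).

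**Figure D1:**
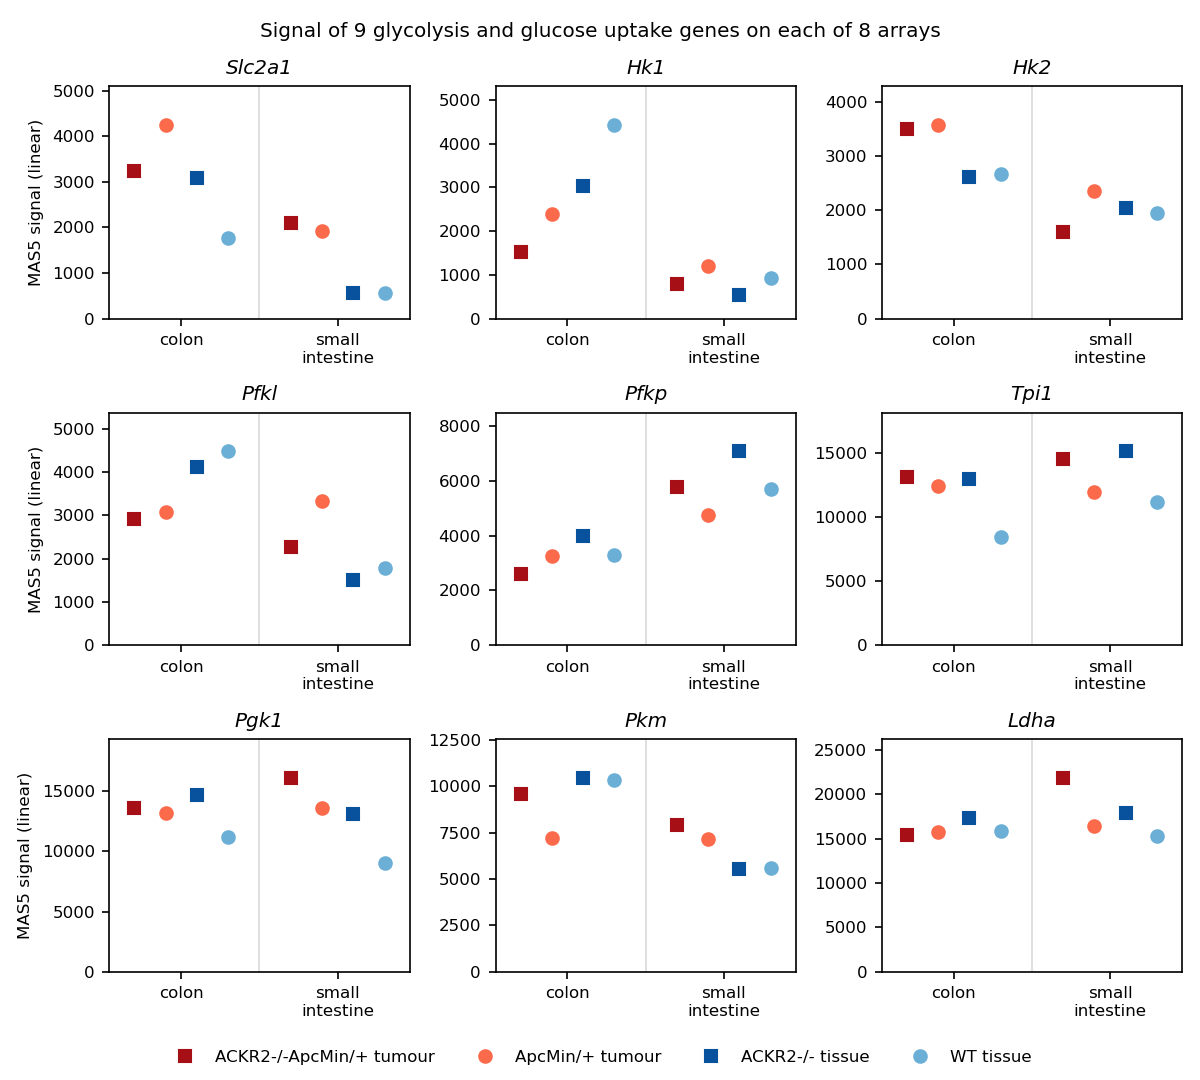
MAS5 signal (linear scale, y axis from 0) of the chosen probe set of each of 9 genes, with 1 point per array, squares for ACKR2-/- and circles for intact ACKR2, red for tumours and blue for non-tumour tissue. Slc2a1 is separated between tumours (1910 and 2106) and tissue (555 and 562) in small intestine, and Hk1 between tumours (1515 and 2387) and tissue (3035 and 4434) in colon.

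Slc2a1 mRNA rose in small-intestinal tumours, about 3.6-fold, to signals within the range of the colon arrays at the chosen probe set only. Slc2a1 encodes GLUT1, the widely expressed facilitative glucose transporter. In small intestine its signal was 2106 in ACKR2-/-ApcMin/+ tumours and 1910 in ApcMin/+ tumours, against 562 in ACKR2-/- tissue and 555 in WT tissue. Both tumour arrays lay far above both tissue arrays. The log2 difference was 1.91 in the ACKR2-/- pair and 1.78 in the pair with intact ACKR2, with a mean of 1.85 ± 0.24 (SE, adjusted p = 0.016). In colon Slc2a1 had 3243 in ACKR2-/-ApcMin/+ tumours and 4249 in ApcMin/+ tumours, against 3093 in ACKR2-/- and 1761 in WT tissue. The ACKR2-/- tumour and tissue values were nearly level, and WT colon alone was low. The colon log2 differences were 0.07 and 1.27 in the ACKR2-/- pair and the other pair, with a mean of 0.67 ± 0.24 that did not pass (adjusted p = 0.0921). The tumour effect in colon minus that in small intestine was -1.18 ± 0.33 (adjusted p = 0.142), with a 95% interval from -1.99 to -0.36.

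The other probe sets of Slc2a1 also rose in small-intestinal tumours, but to signals below every colon array. In ACKR2-/-ApcMin/+ and ApcMin/+ small-intestinal tumours the brighter of them had 1537 and 1491, against at least 1851 in colon. The dimmer had 1025 and 1030, against at least 1700 in colon. In a fit of every probe set separately, these other probe sets differed by 1.93 and 2.05 on the log2 scale in small intestine (adjusted p = 0.00869 and 0.00501). In colon they differed by 0.45 and 0.36 (adjusted p = 0.163 and 0.188). The difference between the tissues passed at 1 of the 3 probe sets (-1.69, adjusted p = 0.0365) and not at the others (-1.48 and -1.18, adjusted p = 0.0717 and 0.158). Without both WT arrays the small-intestinal difference was 1.84, and without both ACKR2-/-ApcMin/+ arrays it was 1.78, so its size stayed while the call was lost. These fits set arrays of both ACKR2 genotypes against an array of a single genotype. In bulk tissue, more RNA per cell and more cells of an expressing type cannot be told apart. B cell markers moved with Slc2a1 in these tumours: all 5 tested markers rose, and their summed signal was 6879 to 10951 in small-intestinal tumours, against 369 to 1385 in small-intestinal tissue, with no marker under the floor on all arrays. Epithelial markers rose in 1 of 8 cases, and their sums were 116770 to 145390 in tumours and 135950 to 141960 in tissue. The part of these cells in the Slc2a1 difference was not tested.

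The promoters of Slc2a1, Hk1 and Hk2 are shown because they belong to the transporter and to the hexokinase pair whose signals are compared here. Each window runs from 250 bases before to 50 bases after an annotated start, 5′ to 3′ on the gene's strand (RefSeq, GRCm38.p6). Capitals mark the core of the hypoxia response element, searched as ACGTG and GCGTG on both strands. Hk1 has a pair of annotated starts.
Slc2a1, chr4:119108495-119108794, plus strand: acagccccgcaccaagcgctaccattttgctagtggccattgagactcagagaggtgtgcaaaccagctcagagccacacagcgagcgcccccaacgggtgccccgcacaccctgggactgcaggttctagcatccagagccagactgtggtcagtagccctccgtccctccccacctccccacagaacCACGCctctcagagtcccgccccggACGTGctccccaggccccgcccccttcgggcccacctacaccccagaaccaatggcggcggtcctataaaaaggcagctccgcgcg
Hk1 upstream start, chr10:62379859-62380158, minus strand: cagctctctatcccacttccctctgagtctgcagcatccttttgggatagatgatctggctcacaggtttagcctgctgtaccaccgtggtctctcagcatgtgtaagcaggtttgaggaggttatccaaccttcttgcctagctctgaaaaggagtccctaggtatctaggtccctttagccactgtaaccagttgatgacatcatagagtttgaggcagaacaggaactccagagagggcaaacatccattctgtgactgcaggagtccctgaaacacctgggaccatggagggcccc
Hk1 downstream start, chr10:62340372-62340671, minus strand: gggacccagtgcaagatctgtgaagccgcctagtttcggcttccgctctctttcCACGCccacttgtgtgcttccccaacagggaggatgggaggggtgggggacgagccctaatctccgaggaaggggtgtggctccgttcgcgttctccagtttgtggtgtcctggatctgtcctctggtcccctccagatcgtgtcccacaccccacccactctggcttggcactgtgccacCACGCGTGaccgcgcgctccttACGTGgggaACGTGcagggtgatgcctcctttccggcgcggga
Hk2, chr6:82774405-82774704, minus strand: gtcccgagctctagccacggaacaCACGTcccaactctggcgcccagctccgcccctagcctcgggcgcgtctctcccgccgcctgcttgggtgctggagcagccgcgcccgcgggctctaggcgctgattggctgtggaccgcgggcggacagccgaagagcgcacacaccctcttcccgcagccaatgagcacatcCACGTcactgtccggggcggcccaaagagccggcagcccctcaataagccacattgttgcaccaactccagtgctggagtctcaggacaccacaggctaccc
The Slc2a1 window held 2 cores, beginning 61 and 36 bases before the start, and the Hk2 window held 2, beginning 226 and 52 bases before it. The downstream Hk1 window held 5, of which the pair beginning 15 and 12 bases before the start overlap, and the upstream Hk1 window held 0. Across the members, 12 of 15 windows held at least 1 core, and 43.8% of all 32851 promoter windows of this length did. Among the 12 are 2 overlapping windows of Eno1 that hold the same cores. By gene, 9 of 10 held a core in any window (all but Tpi1, and with Eno1 included), a count with no like share beside it. ACGTG alone was in 19.6% of all windows and GCGTG in 32.4%. The E-box CACGTG, which contains ACGTG on both strands, was in 7.15% of windows and, among the members, in the upstream Ldha window only. The TCF core CTTTGAT was in 3.73% of all windows and in 0 of the 15. A match describes the letters of the window and not a site in use.

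Hexokinases trap glucose in the cell, and the members include the isozyme genes Hk1 and Hk2. Hk1, the broadly expressed form, fell in colon tumours to about 0.52 of its level in non-tumour colon. Its colon signal was 1515 in ACKR2-/-ApcMin/+ tumours and 2387 in ApcMin/+ tumours, against 3035 in ACKR2-/- and 4434 in WT tissue. Both tumour arrays lay below both tissue arrays, and within each state the ACKR2-/- array was the lower. The log2 differences were -1.0 and -0.89 in the ACKR2-/- pair and the other pair, with a mean of -0.95 ± 0.15 (adjusted p = 0.00991). In small intestine Hk1 had 803 and 1204 in ACKR2-/-ApcMin/+ and ApcMin/+ tumours, against 535 and 938 in ACKR2-/- and WT tissue. Tumours were higher in both pairs, although the tumour and tissue values interleave. The mean difference of 0.47 ± 0.15 did not pass (adjusted p = 0.159). The tumour effect on Hk1 differed between the tissues by -1.42 ± 0.21, colon minus small intestine (adjusted p = 0.0367).

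The other Hk1 probe set had colon signals of 456 and 575 in ACKR2-/-ApcMin/+ and ApcMin/+ tumours, against 1710 and 1874 in ACKR2-/- and WT tissue, a log2 difference of -1.81 (adjusted p = 0.0143 in the fit of every probe set). Its difference between the tissues was -2.24 (adjusted p = 0.0825). Without both WT arrays the colon difference at the chosen Hk1 probe set was -0.67, and without both ACKR2-/-ApcMin/+ arrays it was -0.62. These fits set arrays of both ACKR2 genotypes against an array of a single genotype. The lower Hk1 signal of the ACKR2-/- arrays therefore enters them, while the matched pairs gave -1.0 and -0.89. Smooth muscle markers fell together with Hk1 in colon tumours: all 10 fell, and their summed signal was 9834 to 36200 in colon tumours, against 116330 to 137520 in colon tissue. They also fell in small-intestinal tumours (7 of 10), where the sums were 12569 to 27172 in tumours, against 65271 to 69977 in tissue. Of 5 enteric neuron and glia markers 4 fell in colon tumours and 0 passed in small intestine. Colonocyte markers fell in colon tumours too (4 of 6, sums 17705 to 33625 in tumours, against 89333 to 93476 in tissue), and 0 of 6 passed in small intestine. Proliferation markers rose in colon tumours (9 of 9, sums 18724 to 24028, against 5935 to 7236 in tissue), and 0 of 9 passed in small intestine. None of these markers was under the floor on all arrays. Their part in the Hk1 difference was not tested.

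Hk2, the inducible hexokinase that is typical of muscle and of many tumours, did not pass in either tissue. In colon it had 3491 and 3573 in ACKR2-/-ApcMin/+ and ApcMin/+ tumours, against 2609 and 2665 in ACKR2-/- and WT tissue. The tumour arrays lay above the tissue arrays by the same amount in both pairs (log2 0.42 and 0.42), and the 95% interval of the mean ran from 0.0039 to 0.84 (adjusted p = 0.13). In small intestine it had 1595 and 2361 in the same tumour groups, against 2035 and 1944 in ACKR2-/- and WT tissue. The pairs went opposite ways there (-0.35 and 0.28, adjusted p = 0.95 for the mean).

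The balance between these hexokinases was read from the log2 ratio of the Hk2 signal to the Hk1 signal, whose change between arrays can be interpreted although its level cannot. In colon the ratio was 1.21 and 0.58 in ACKR2-/-ApcMin/+ and ApcMin/+ tumours, against -0.22 and -0.74 in ACKR2-/- and WT tissue, a mean difference of 1.37. In small intestine it was 0.99 and 0.97 in these tumours, against 1.93 and 1.05 in ACKR2-/- and WT tissue, a mean difference of -0.51. The ratio was thus higher in both colon tumour arrays and lower in both small-intestinal ones than in either tissue array of the same organ. The 4 tumour ratios spanned a narrow range (SD 0.26), and the 4 non-tumour ratios a wide one (SD 1.21). Over all arrays the tumour ratio was higher by 0.43 (exact two-sided permutation test, 4 against 4 arrays, p = 0.514, adjusted p = 0.629 over 5 isozyme pairs), where 0.0286 is the smallest p this design allows. Within a tissue, 2 against 2 arrays were given with no test.

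**Figure D2:**
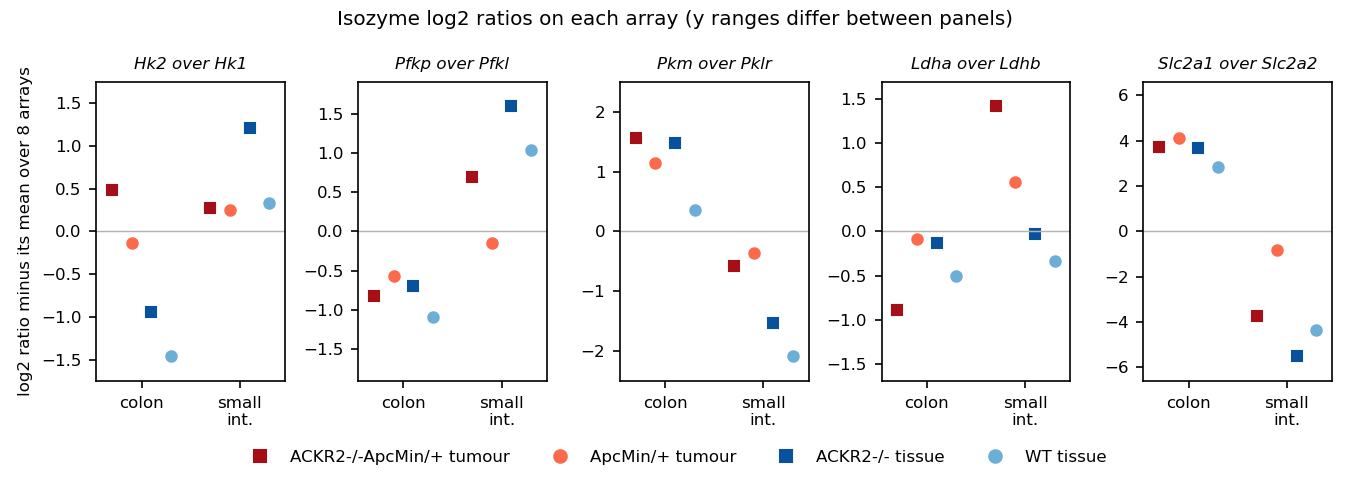
Log2 ratio of the signals of each isozyme pair on every array, minus the mean of that ratio over the 8 arrays; the y range differs between panels, and symbols are as in the plot of signals. In colon the Hk2 over Hk1 ratio is higher in tumours than in tissue (mean difference 1.37), and in small intestine it is lower (mean difference -0.51).

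Phosphofructokinase commits sugar to glycolysis, and its liver-type subunit gene Pfkl had opposite signs in the tumours of the 2 organs. In colon Pfkl had 2916 and 3068 in ACKR2-/-ApcMin/+ and ApcMin/+ tumours, against 4117 and 4480 in ACKR2-/- and WT tissue. In small intestine it had 2272 and 3341 in these tumours, against 1497 and 1773 in ACKR2-/- and WT tissue. Tumours and tissue did not overlap in either organ, with tumours low in colon and high in small intestine. The mean log2 differences were -0.52 ± 0.17 in colon (adjusted p = 0.0698) and 0.76 ± 0.17 in small intestine (adjusted p = 0.0686), and neither passed. The difference between them was -1.28 ± 0.23 (adjusted p = 0.0572). The second most intense Pfkl probe set gave -0.38 and 0.77 in colon and small intestine, while the dimmest, at signals of 64.3 to 213.5, gave 0.59 and 1.07.

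Pfkp, the platelet-type subunit gene, was lower in tumours in all 4 pairs but by little. It had 2597 and 3242 in ACKR2-/-ApcMin/+ and ApcMin/+ colon tumours, against 3982 and 3293 in ACKR2-/- and WT colon. In small intestine it had 5754 and 4737 in these tumours, against 7068 and 5701 in ACKR2-/- and WT tissue. The mean differences of -0.32 ± 0.18 in colon and -0.28 ± 0.18 in small intestine did not pass (adjusted p = 0.252 and 0.443). The dim Pfkp probe set differed by -0.92 and -0.79, and was under the floor on 2 of 8 arrays. The Pfkp to Pfkl log2 ratio differed by 0.20 between colon tumours and tissue and by -1.04 in small intestine (exact two-sided permutation p over all arrays = 0.629, adjusted p = 0.629).

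None of the 4 measured members below phosphofructokinase passed in either organ. Of all genes tested, 23.6% were called in colon and 3.9% in small intestine. Tpi1, triosephosphate isomerase, had 13155 and 12435 in ACKR2-/-ApcMin/+ and ApcMin/+ colon tumours, against 12972 and 8413 in ACKR2-/- and WT colon. Its small-intestinal signals were 14507 and 11968 in these tumours, against 15127 and 11192 in ACKR2-/- and WT tissue. WT colon was the lowest array, and the tumour differences of 0.29 ± 0.17 in colon and 0.02 ± 0.17 in small intestine did not pass (adjusted p = 0.256 and 0.988). The small-intestinal difference was -0.18 with arrays centred on their medians.

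Pgk1, the X-linked phosphoglycerate kinase gene, had 13601 and 13164 in ACKR2-/-ApcMin/+ and ApcMin/+ colon tumours, against 14646 and 11174 in ACKR2-/- and WT colon. The small-intestinal signals were 16090 and 13559 in these tumours, against 13062 and 9043 in ACKR2-/- and WT tissue. The WT array was the lowest in each organ, and the tumour differences were 0.06 ± 0.17 in colon and 0.44 ± 0.17 in small intestine (adjusted p = 0.827 and 0.213). A second Pgk1 probe set gave 11646 to 14839 on the other 6 arrays, against 6550 (colon) and 5851 (small intestine) in WT tissue. The WT arrays were also the ones without Y-linked signal, and that part was not tested.

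Pkm, which encodes the pyruvate kinase M1 and M2 forms that its single probe set here cannot tell apart, had 9599 and 7221 in ACKR2-/-ApcMin/+ and ApcMin/+ colon tumours, against 10456 and 10370 in ACKR2-/- and WT colon. Its small-intestinal signals were 7912 and 7148 in these tumours, against 5523 and 5621 in ACKR2-/- and WT tissue. Tumours were below tissue in colon and above it in small intestine without overlap, yet the differences of -0.32 ± 0.15 and 0.43 ± 0.15 did not pass (adjusted p = 0.181 and 0.193). The difference between the tissues was -0.76 ± 0.22 (adjusted p = 0.143). Ldha, lactate dehydrogenase A, had 15443 and 15740 in ACKR2-/-ApcMin/+ and ApcMin/+ colon tumours, against 17305 and 15859 in ACKR2-/- and WT colon. The small-intestinal signals were 21844 and 16417 in these tumours, against 17861 and 15361 in ACKR2-/- and WT tissue. Its groups overlapped in small intestine, and its differences of -0.09 ± 0.19 in colon and 0.19 ± 0.19 in small intestine did not pass (adjusted p = 0.791 and 0.631). The 95% intervals ran from -0.55 to 0.38 and from -0.27 to 0.66.

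**Figure D3:**
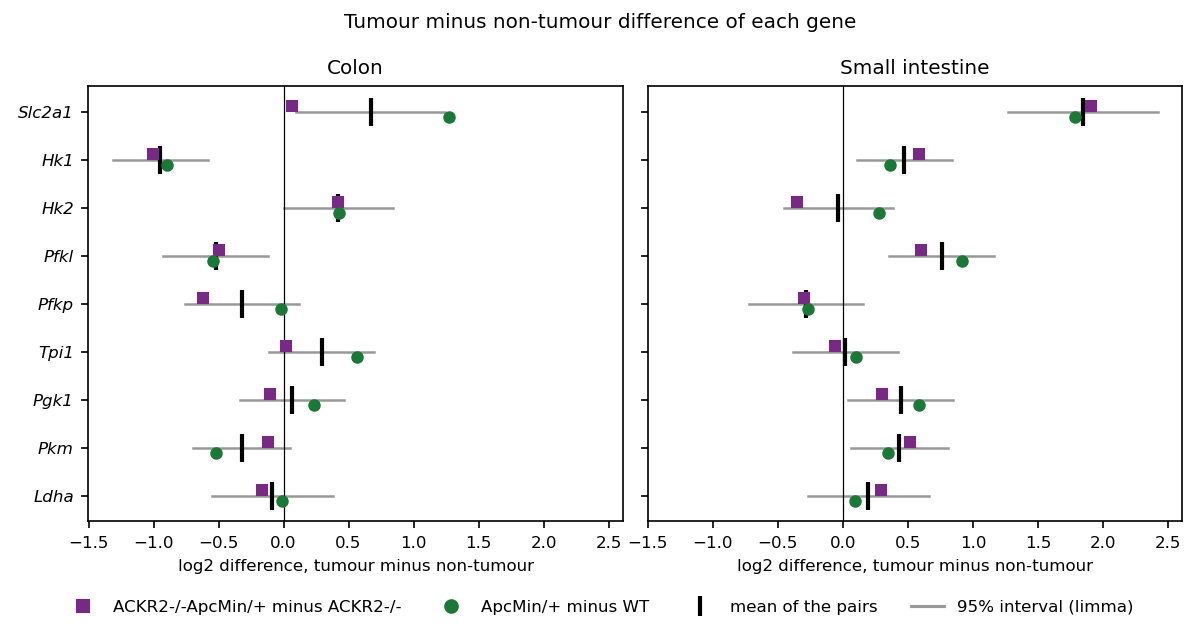
Log2 difference, tumour minus non-tumour, of each gene in colon (left) and small intestine (right), with squares for the ACKR2-/- pair, circles for the pair with intact ACKR2, a black bar for their mean and a grey line for the 95% interval of the limma model. Hk1 in colon (-0.95) and Slc2a1 in small intestine (1.85) are the genes past the threshold.

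Counted over the set, 1 of 9 members fell (Hk1) and 0 rose in colon tumours, where the model called 12.6% of all tested genes lower and 11.1% higher (23.6% either way). In small-intestinal tumours 1 of 9 rose (Slc2a1) and 0 fell, where 2.72% of genes were called higher and 1.18% lower (3.9% either way). An unadjusted p under 0.05 was reached by 4 members in colon and 5 in small intestine, and by 37.4% and 20.1% of all genes in these organs. The tumour effect differed between the tissues for 1 of 9 members (Hk1), lower in colon, where 1.44% of genes were called lower and 0.706% higher (2.15% either way). Slc2a1 in small intestine was the only member whose 2 pairs both showed a 2-fold change of one sign. Over all genes, 3.14% met this upward and 1.13% downward in small intestine, and 4.85% and 6.13% did in colon. In colon, 5 members had both tumour arrays below both tissue arrays and 2 had them above, which 26.6% and 26.4% of genes did. In small intestine 4 members had them above and 0 below, which 23.3% and 14.9% of genes did. The median log2 difference of the members was -0.09 in colon and 0.43 in small intestine, beside 0.00 and 0.04 over all genes tested. None of the 9 members had all 4 tumour arrays on the same side of all 4 non-tumour arrays, while 6.8% of genes were fully above and 4.21% fully below.

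The remaining isozyme pairs were read in the same way. The Pkm to Pklr log2 ratio, muscle-type against liver-type pyruvate kinase, was 2.62 and 2.84 in ACKR2-/-ApcMin/+ and ApcMin/+ small-intestinal tumours, against 1.67 and 1.103 in ACKR2-/- and WT tissue. The ratio was higher in both tumour arrays, by 1.34 on average, and by 0.43 in colon. The Ldha to Ldhb log2 ratio was 5.88 and 5.03 in the same small-intestinal tumours, against 4.44 and 4.13 in ACKR2-/- and WT tissue. This difference of 1.17 in small intestine went with lower Ldhb signals of 370 and 504 in these tumours, against 823 and 879 in tissue, and the ratio differed by -0.16 in colon. The Slc2a1 to Slc2a2 ratio differed by 2.63 in small intestine. In colon the ratio is a bound and its change was not measured. Slc2a2, the GLUT2 gene of absorptive enterocytes, was under the floor on all 4 colon arrays. Over all 8 arrays none of the 5 pairs passed (exact two-sided permutation p = 0.371 to 0.629, adjusted p = 0.629 for each), a test that leaves organ and genotype in the spread. Within the 4 pairs matched by organ and ACKR2 genotype, the Pkm to Pklr ratio was higher in tumours in 4 of 4, by 0.089 and 0.78 in colon and 0.95 and 1.73 in small intestine, with the ACKR2-/- pair first in each. The Slc2a1 to Slc2a2 ratio was higher in both small-intestinal pairs, by 1.77 and 3.50. Its colon values of 0.068 and 1.27 are the Slc2a1 differences alone, since Slc2a2 was set to the floor there. An exact two-sided sign-flip test over the 4 pairs, added after seeing the data, gave p = 0.125 for each of these ratios, the smallest it allows (adjusted p = 0.312), and 0.375 to 0.5 for the other 3. For Slc2a1 to Slc2a2 this test used the colon values of Slc2a1 alone, so it cannot speak for that ratio in colon.

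The organs differed before any tumour, which sets the level from which each tumour effect was measured. In non-tumour colon against non-tumour small intestine, Hk1 was higher by 2.37 ± 0.15 on the log2 scale (adjusted p = 0.000428), Slc2a1 by 2.06 ± 0.24 (adjusted p = 0.00327), Pfkl by 1.40 ± 0.17 (adjusted p = 0.00364) and Pkm by 0.90 ± 0.15 (adjusted p = 0.0113). Pfkp was lower by -0.81 ± 0.18 (adjusted p = 0.0269). Thus 4 of 9 members were called higher and 1 lower, where 12.9% and 8.38% of genes were (21.3% either way). Hk2, Tpi1, Pgk1 and Ldha did not pass (adjusted p = 0.148, 0.229, 0.36 and 1). These differences share the non-tumour arrays with the tumour comparisons, so their signs are not independent of the tumour effects.

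No member passed the threshold in either ACKR2 comparison at the chosen probe sets. The ACKR2-/- arrays also differed from the others in Actb 3'/5' ratio and median signal, in tissue in Eif2s3y signal and in tumours in Xist signal (values above). The design cannot separate these from ACKR2 genotype, and their part was not tested. In tumours (ACKR2-/-ApcMin/+ minus ApcMin/+) limma called 0 of 9 members and 0.0285% of all genes (0% higher, 0.0285% lower), and 1 member had an unadjusted p under 0.05, as did 15.6% of all genes. In non-tumour tissue (ACKR2-/- minus WT) it called 0 of 9 members and 0.57% of genes (0.128% higher, 0.442% lower), with 3 members at an unadjusted p under 0.05, as were 24.7% of all genes. Hk1 was lower in the ACKR2-/- array of all 4 pairs, by -0.66 and -0.58 in colon and small-intestinal tumours and by -0.55 and -0.81 in colon and small-intestinal tissue (adjusted p = 0.184 in tumours and 0.075 in tissue). In tissue its adjusted p was 0.0469 with the filter set to all 8 arrays and 0.0485 with every probe set fitted. Tpi1 (0.62 and 0.43) and Pgk1 (0.39 and 0.53) were higher in both non-tumour pairs, without passing (adjusted p = 0.125 and 0.16). With every probe set fitted, both other Pgk1 probe sets were higher in ACKR2-/- than in WT tissue (1.08 and 1.34, adjusted p = 0.0213 and 0.0479), as was another Tpi1 probe set (0.82, adjusted p = 0.0392). The dim Pfkp probe set differed by -2.57 (adjusted p = 0.0147). With Hk1, that fit called 3 of the 20 probe sets of the members higher and 2 lower, and 1.71% and 6.62% of all probe sets. Centring the arrays on their medians moved the median of all genes in this comparison to 0.435, against -0.02 before. It called 6 of 9 members higher (Slc2a1, Pfkp, Tpi1, Pgk1, Pkm and Ldha), with Tpi1 at 1.08 and Pgk1 at 1.01, and brought Hk1 to -0.13. That setting called 25.7% of all genes higher. Of the 6, Pkm alone turned its sign, at 0.54 with centring and -0.0066 without it. The other 5 were positive in both settings, so that scaling moved their size and their call.

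The other enzymes of glycolysis fell more often than they rose in colon tumours. Of 15 listed genes 10 were tested, 4 fell and 1 rose (median -0.47, beside 0.00 over all genes). Over all genes tested in colon, 12.6% were called lower and 11.1% higher. Eno3, the muscle enolase gene, fell by 3.38 on the log2 scale, to 745 and 555 in ACKR2-/-ApcMin/+ and ApcMin/+ colon tumours, against 8069 and 5587 in ACKR2-/- and WT colon (adjusted p = 0.000625). In small intestine Eno3 had 453 and 340 in these tumours, against 473 and 326 in tissue, and the difference between the organs was -3.38 ± 0.23 (adjusted p = 0.00568). Eno2, the neuronal enolase gene, fell by at least 1.03 (a limit, since both colon tumour signals were under the floor), Pfkm, the muscle phosphofructokinase gene, by 0.96 and Pklr by 0.76 (adjusted p = 0.0153, 0.0304 and 0.0464), while Bpgm, bisphosphoglycerate mutase, rose by 0.78 (adjusted p = 0.0274). Pklr had 353 and 357 in ACKR2-/-ApcMin/+ and ApcMin/+ colon tumours, against 409 and 881 in ACKR2-/- and WT colon, so WT colon alone was high. Smooth muscle and neuronal markers fell on the colon tumour arrays too (values above), and their part was not tested. In small intestine 1 of the 10 rose: Aldoc, aldolase C, had 1627 and 1237 in ACKR2-/-ApcMin/+ and ApcMin/+ tumours, against 374 and 221 in ACKR2-/- and WT tissue. This difference was 2.30 ± 0.17 (adjusted p = 0.00423). In colon Aldoc had 1473 and 1305 in these tumours, against 1620 and 1170 in tissue, and the tumour effect differed between the organs by -2.29 ± 0.25 (adjusted p = 0.0182). The list median in small intestine was -0.05, and 2.72% of all genes were called higher there and 1.18% lower.

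Among 11 tested glucose and fructose transporters other than Slc2a1, 4 fell and 0 rose in colon tumours (median -1.0), and 0 passed in small intestine (median -0.49). The shares of all genes, for this and the next lists, were 12.6% lower and 11.1% higher in colon, and 1.18% and 2.72% in small intestine. The insulin-regulated transporter gene Slc2a4 fell by 1.99, the inositol transporter gene Slc2a13 by 1.75, the sodium-glucose cotransporter gene Slc5a1 by 1.35 and Slc2a12 by at least 1.14 (adjusted p = 0.00623, 0.00629, 0.0153 and 0.0166). The value of Slc2a12 is a limit, since both of its colon tumour signals were under the floor. Of 4 tested genes for the enzymes that make and remove fructose 2,6-bisphosphate, the activator of phosphofructokinase, Pfkfb4 fell by 1.14 in colon (adjusted p = 0.00858). Of 14 tested genes of lactate and pyruvate handling, Slc16a3, which encodes the lactate exporter MCT4, rose by 1.54 ± 0.35 in colon tumours (adjusted p = 0.0273). Its signals were 884 and 465 in ACKR2-/-ApcMin/+ and ApcMin/+ tumours, against 163 and 299 in ACKR2-/- and WT colon. Slc16a1, the butyrate and lactate transporter gene MCT1, fell by 1.58 and the pyruvate dehydrogenase kinase gene Pdk2 by 2.48 (adjusted p = 0.00591 and 0.00472). In small intestine 0 of these 4 and 0 of these 14 genes passed. On the same colon tumour arrays smooth muscle markers (10 of 10) and colonocyte markers (4 of 6) fell, and neutrophil markers rose (3 of 4, with Cxcr2 under the floor on all arrays, sums 11711 to 13205 in tumours, against 479 to 1018 in tissue). Their part in these differences was not tested.

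Genes of gluconeogenesis and fructose metabolism fell in 3 of 11 cases in colon tumours and in 0 cases rose (median -0.62), where 12.6% of all genes were called lower and 11.1% higher. Pck1, the cytosolic enzyme that starts gluconeogenesis from oxaloacetate, fell by 3.04, the ketohexokinase gene Khk by 1.56 and the pyruvate carboxylase gene Pcx by 1.54 (adjusted p = 0.0322, 0.0199 and 0.0115). Of 7 pentose phosphate genes 2 rose in colon tumours, Rpe by 0.82 and the transaldolase gene Taldo1 by 0.70 (adjusted p = 0.0221 and 0.0328, median 0.40). Neither list had a called gene in small intestine (medians -0.34 and -0.02), where 3.9% of all genes were called either way.

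Hypoxia-induced genes outside the set were higher in small-intestinal tumours in 4 of 14 cases and lower in 0, with a median of 0.53 beside 0.04 over all genes. Over all genes, 2.72% were called higher there and 1.18% lower. Ddit4, an inhibitor of mTORC1, rose by 1.35 ± 0.16 (adjusted p = 0.0123), Ankrd37 by 1.16 ± 0.22 (adjusted p = 0.048), the mitophagy gene Bnip3 by 1.15 ± 0.17 (adjusted p = 0.0243) and the prolyl hydroxylase gene Egln3 by 1.12 ± 0.15 (adjusted p = 0.018). Bnip3 had 2968 and 2870 in ACKR2-/-ApcMin/+ and ApcMin/+ tumours, against 1880 and 914 in ACKR2-/- and WT small intestine. It was also higher in ACKR2-/- than in WT tissue (1.26 ± 0.17, adjusted p = 0.0495). Other well-known targets did not pass: Vegfa differed by -0.01 (adjusted p = 1) and Car9 by 1.10 (adjusted p = 0.107). In colon tumours 2 of 14 rose, Ddit4 by 0.76 and Ndrg1 by 0.60 (adjusted p = 0.0208 and 0.0322), and Egln1 fell by 0.62 (adjusted p = 0.0346), with a median of -0.03. Of all genes in colon, 11.1% were called higher and 12.6% lower. No gene of this list passed the test of the difference between the organs, which 2.15% of all genes did.

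**Figure D4:**
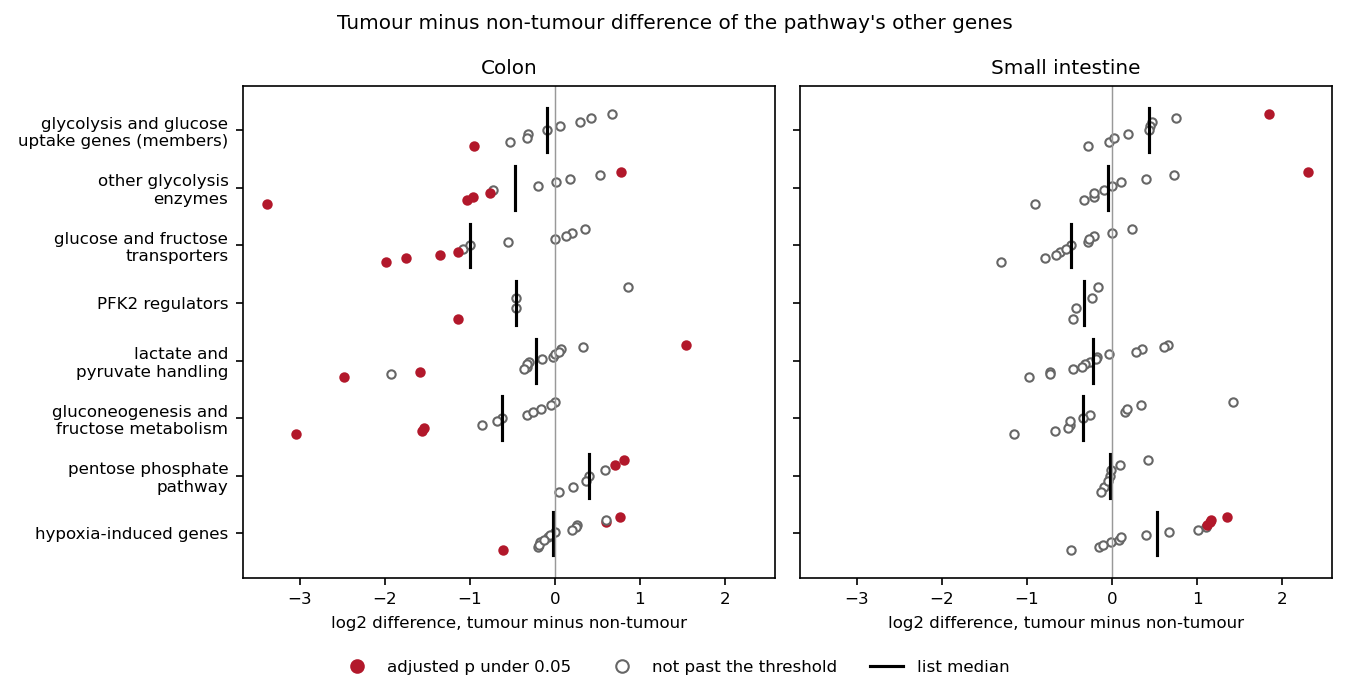
Log2 difference, tumour minus non-tumour, of every tested gene of the members and of 7 pathway lists in colon (left) and small intestine (right). Filled points passed an adjusted p under 0.05 and black bars are list medians; Eno3 is the lowest filled point in colon (-3.38) and Aldoc the highest in small intestine (2.30).

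Genes with the most similar pattern over the 8 arrays were listed for 4 members by Pearson's r of the log2 values, as a description with no test. Hk2 was closest to Scarb2, Zzz3 and C3ar1 (r = 0.981, 0.980 and 0.974). Hk1 was closest to Tmprss2, Phlpp1 and Cep83os (r = 0.991, 0.986 and 0.986). Slc2a1 was closest to Cfap20, Arg1 and Macc1 (r = 0.980, 0.979 and 0.979). Of these, Macc1 had 222 and 263 in ACKR2-/-ApcMin/+ and ApcMin/+ small-intestinal tumours, against 45.7 and 20.2 in ACKR2-/- and WT tissue. These tissue signals of Macc1, and those of Arg1 (1.46 and 22.5), were under the floor and entered r at the floor. Those closest to Ldha (r = 0.969 to 0.982) were Cyp8b1, Strip2 and Bmx, whose signals lay near or under the floor on most arrays. These 8 points share 2 organs and the array scaling.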

How the data were processed

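Total RNA was labelled with the 3' IVT Express kit after Trizol and column extraction and was pooled per genotype, per the labels' protocols and the design text. The deposited table holds intensity values for 45101 probe sets on 8 arrays, made by the authors with MAS5 and Partek, per the submitters' processing notes (versions not given). Tested on the table, the values are linear and every array's 2% trimmed mean is 500, so the arrays had been scaled before deposit. The precision is limited by the number of arrays, 1 per group.

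Leaving out 64 controls, 34945 probe sets had 1 gene, 932 several and 9160 none (platform annotation; 34741 matched a RefSeq gene identifier and 0 symbols changed). Values under 64.1, the median of the arrays' 40th percentiles, were set to it and log2 was taken. Each gene was represented by its probe set with the highest mean, and genes above the floor on at least 2 arrays were tested. The limma model (limma 3.58.1, R 4.3.3, eBayes with trend, Benjamini-Hochberg over all 14027 genes, two-sided) had 6 coefficients: 4 intercepts for organ and tumour state, and 1 ACKR2 effect per tumour state shared by the organs. Prior degrees of freedom were 4.12. Fits were checked on simulated data. Isozyme ratios used exact permutation tests, of which 1 of 6 planned pairs is not reported here. Listed pathway genes not analysed here included Gpi1, Gapdh, Pfkfb1, Mpc2, G6pdx and H6pdx, and Pgam2, Slc2a6 and Ldhc did not pass the filter. Named genes were the members, the isozyme partners, up to 4 called genes per list and organ with the largest difference, and the 3 most similar genes of 4 members. Alternatives covered the floor, filter, scaling, probe set choice, model and arrays. The members and lists were chosen with earlier results of these data known.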

Additional observations from a re-analysis of the deposited data

Results flagged for a closer look

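The tumour effect differed between the organs for Hk1, by -1.42 on the log2 scale, colon minus small intestine (limma adjusted p = 0.0367): Hk1 was lower in tumours in both colon pairs and higher in both small-intestinal pairs. A further 3 members had opposite signs in both pairs of the organs without passing that test, a count with no share of all genes beside it. They were Pfkl (-1.28, adjusted p = 0.0572), Pkm (-0.76, adjusted p = 0.143) and Ldha (-0.28, adjusted p = 0.626). The colon differences of Ldha were only -0.16 and -0.011 in the ACKR2-/- pair and the other pair. The dimmest Pfkl probe set was higher in tumours of both organs (0.59 in colon and 1.07 in small intestine).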

How the results depend on the processing

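The model called 1 member in colon tumours, 1 in small-intestinal tumours, 1 for the difference between the organs, 0 for either ACKR2 effect and 5 between non-tumour organs. With no filter on low signals, these counts were 0 for colon, 0 for small intestine, 0 for the difference and 1 between non-tumour organs. Of 18193 genes, that setting called 38 higher and 52 lower in colon, 25 and 4 in small intestine, and 4 and 20 for the difference. Between non-tumour organs it called 161 and 101. The main fit, of 14027 genes, called 1552 and 1764 in colon, 382 and 165 in small intestine, and 99 and 202 for the difference. Between non-tumour organs it called 1811 and 1176. With the filter on all 8 arrays, the difference between the organs had 2 and the ACKR2 effect in tissue 1. Of 10659 genes, 86 were then called higher and 152 lower for the difference, and 321 and 524 for the ACKR2 effect. Quantile normalization gave 2 in colon, where 1745 of 14113 genes were called higher and 1841 lower. Median centring gave 0 for the difference and 6 for the ACKR2 effect in tissue. Of 14130 genes, it called 117 higher and 111 lower for the difference, and 3632 and 170 for the ACKR2 effect. For the difference, the mean of all probe sets gave 0, the additive model 2 and no trend 0. The mean called 48 of 14056 genes higher and 112 lower. Of 14027 genes, the additive model called 102 and 233, and the fit with no trend 55 and 142. Fitting every probe set gave 1 for the ACKR2 effect in tissue, where 441 of 25776 probe sets were called higher and 1706 lower. The fits with arrays left out, given next, keep 1 residual degree of freedom, and their loss of calls was not particular to the members. Without both WT arrays, and likewise without both ACKR2-/-ApcMin/+ arrays, all 4 of these comparisons (colon, small intestine, difference, non-tumour organs) had 0. With any 1 array left out, each count was 0 to 0, and Hk1 in colon ran from -1.08 to -0.82 and Slc2a1 in small intestine from 1.45 to 2.24; the fit then has 1 fewer residual degree of freedom.

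Signs turned only for members that were not called. Under quantile normalization, Ldha in colon was 0.028 and Hk2 in small intestine 0.025. Under median centring, Tpi1 (-0.18) and Ldha (-0.00086) turned in small intestine and Pfkp (0.18) in the difference. Without both WT arrays, Tpi1 (-0.020) and Pgk1 (-0.13) turned in colon and Tpi1 (-0.20) in small intestine. Without both ACKR2-/-ApcMin/+ arrays, Hk2 (0.25), Tpi1 (-0.12) and Ldha (-0.013) turned in small intestine and Pfkp (0.26) in the difference. In the fits without the WT or the ACKR2-/-ApcMin/+ arrays, tumours and tissue are not balanced for ACKR2 genotype. Their values therefore include the ACKR2 difference. With 1 array left out, Pgk1 ran from -0.035 to 0.16 and Ldha from -0.31 to 0.13 in colon. In small intestine Hk2 ran from -0.30 to 0.23, Pfkp from -0.58 to 0.018, Tpi1 from -0.080 to 0.12 and Ldha from -0.027 to 0.41. Pfkp in the difference ran from -0.34 to 0.26. The Pfkp to Pfkl log ratio over all arrays ran from -0.85 to 0.042. Beyond this imbalance of genotypes in the fits without the WT or the ACKR2-/-ApcMin/+ arrays, the cause was not tested. No fit with a replicate block could be made, because each group has 1 array and the labels carry no replicate numbers. Pairing the arrays by organ and ACKR2 genotype for the isozyme ratios was chosen after seeing the data. Its exact sign-flip test could make no call, since the smallest p it allows is 0.125 (adjusted p = 0.312 to 0.5).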

Other observations

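Absorptive sugar genes set the organs apart before tumours. In non-tumour colon against non-tumour small intestine, Slc2a2 differed by -6.13 on the log2 scale (a lower limit in size, since colon was under the floor), the hexokinase domain gene Hkdc1 by -4.46, the fructose transporter gene Slc2a5 by -3.54 and Slc5a1 by -2.31 (limma adjusted p = 0.00322, 0.000788, 0.00368 and 0.00268). In small-intestinal tumours against tissue none of these passed. Slc2a2 had 7506 in ACKR2-/-ApcMin/+ and 903 in ApcMin/+ tumours, against 6804 in ACKR2-/- and 2966 in WT tissue. Hkdc1 had 3191 and 3109 in these tumours, against 3272 and 4063 in tissue.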
